A study of Arabidopsis thaliana with 4 samples.

Results

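Wild type seedlings of Arabidopsis thaliana, accession Landsberg erecta (Ler), were compared after 1 h of dexamethasone and after 1 h of mock treatment. They were chosen by the array titles and make up 2 of the 4 arrays of the series, 1 flask and 1 array per group. The dexamethasone flask received the steroid at 50 µg/ml in 0.1% ethanol, and the mock flask received 0.1% ethanol alone. Both flasks had been grown in shaken liquid culture under constant light for 10 days, and neither carried a transgene. The other 2 arrays came from the transgenic line GR-REV, which expresses a microRNA-resistant form of the HD-ZIP III transcription factor REVOLUTA, fused to the glucocorticoid receptor domain, from the constitutive viral CaMV35S promoter. Their seedlings were likewise grown for 10 days and treated for 1 h with dexamethasone or mock, at the same steroid and ethanol concentrations. The line is in Ler, as the title of its dexamethasone array states. The treatment of each GR-REV array is one thing in its title and protocol and the opposite in its source name. Their values are given here by title, and every difference between these 2 arrays turns its sign if the source names are right. The wild type arrays have no such conflict. RNA was taken from seedling tissue of mixed cell types, so that fewer cells of a type and less RNA per cell cannot be told apart.

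Dexamethasone is a synthetic ligand of the animal glucocorticoid receptor. Plants have no receptor of that family, and their own steroid hormones, the brassinosteroids, are perceived by receptor kinases at the cell surface. Dexamethasone is therefore used to switch on receptor fusions in plants, and wild type plants given the steroid serve as the control for whatever it does without the fusion. In a liquid culture the control pair also holds the difference between 2 flasks of seedlings, each handled, harvested, extracted and hybridized once.

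The 4 arrays as deposited had nearly the same 2% trimmed mean signal, between 495 and 496, and the number of arrays limits the precision. Signals under 91.4, the 40th percentile over the 4 arrays, were raised to that value, called the floor here. The wild type dexamethasone array had 59.2% of its 22746 probe sets above it, and the mock array 62.9%. Of 22 green shoot markers 3 were measured: rubisco activase (RCA) had 28804 with dexamethasone and 20706 in mock, the antenna gene LHCB4.1 had 22897 and 18743, and LHCB4.2 had 6909 and 7394. Of 18 root markers the root hair expansin genes EXPA7 and EXPA18 had a probe set, and both were below the floor on both wild type arrays, with summed signals of 87.6 and 142. The summed signal of the 3 shoot markers was 58610.0 with dexamethasone and 46842 in mock. Of the other markers looked for, the senescence gene SAG101 had 339.6 with dexamethasone and 337 in mock, the MADS-box gene AGL65 had 102 and 144, and for the seed storage genes no probe set is named in the annotation used. The signal of the 25S rRNA control was 768 with dexamethasone and 293 in mock, and 929 and 859 on the GR-REV dexamethasone and mock arrays. The signal ratio of the 3′ to the 5′ probe set was 13.9 and 9.33 for actin, 1.60 and 1.78 for GAPDH and 1.67 and 1.57 for ubiquitin, in wild type dexamethasone and wild type mock. The part that these differences between the arrays play in the results below was not tested.

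The 2 wild type arrays differed by at least 2-fold at 507 probe sets, or 3.46% of those measured. Measured here means above the floor on one wild type array or both, which held for 14662 probe sets. Of these, 126 were at least 2-fold higher with dexamethasone, which is 0.859%, and 381 were at least 2-fold lower, which is 2.6%. With 1 array per group there is no replicate error and no test, and no difference below can be told apart from a difference between flasks. The GR-REV pair, by title, had 278 probe sets at least 2-fold higher, or 1.98% of 14007, and 275 lower, or 1.96%. Most differences in wild type were small: 107 of the higher and 347 of the lower probe sets lay between 2-fold and 3-fold. At least 4-fold apart were 12 higher and 9 lower probe sets, of which 4 and 2 could be assigned to 1 gene. In 18 of the higher probe sets only the dexamethasone array was above the floor, and in 72 of the lower ones only the mock array was.

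The lower calls gathered at low signals. Among 13101 probe sets above the floor on both arrays, the median difference, dexamethasone minus mock, was -0.06 on the log2 scale, with quartiles of -0.34 and 0.20, and 0.824% were called higher and 2.36% lower. In the lowest decile by mean level, at signals from 92.9 to 149.6, 6 probe sets were higher and 17 lower. Both signals had to exceed the floor, which left little room for a 2-fold difference there. In the second decile, at signals from 149.6 to 207, the median was -0.21, and 14 probe sets were higher and 86 lower. In the highest decile, above 2557, the median was 0.19, and 14 were higher and 8 lower. The difference between the arrays thus changed sign with level. Removing this trend with a smooth curve, an alternative processing, left 174 probe sets higher and 259 lower. Division of each array by its median turned the split to 310 higher and 176 lower. Of the 126 higher probe sets 115 stayed past 2-fold with the deposited scaling and all 3 other scalings, against 176 of the 381 lower ones. This contrast does not show which direction holds better, because division by the median favours higher calls: the medians were 156 with dexamethasone and 181 in mock. That scaling kept 126 of the higher and 176 of the lower calls. Quantile normalization kept 115 and 236, and the smooth curve 116 and 237.

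**Figure D1:**
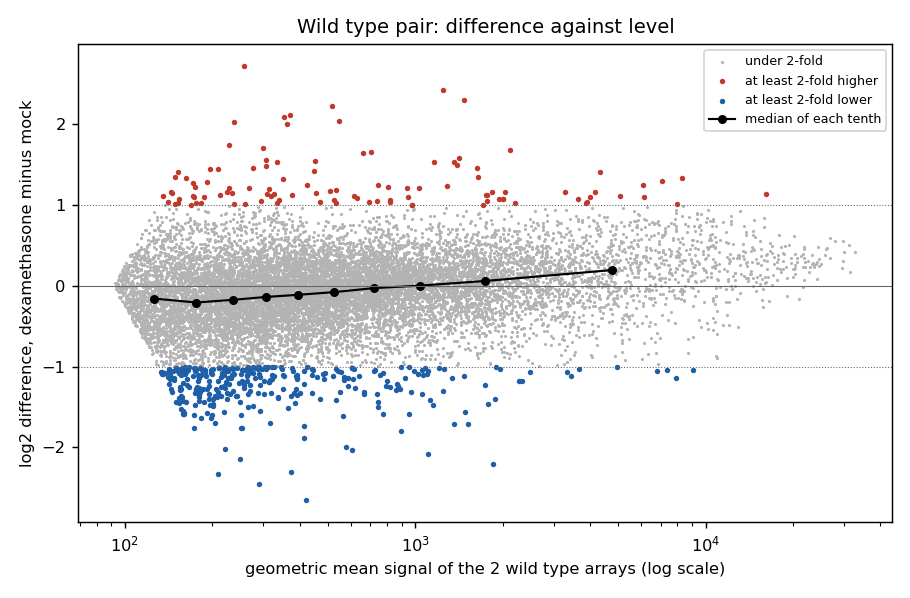
Each point is a probe set above the floor on both wild type arrays, with the geometric mean of its 2 signals on a log axis and its log2 difference, dexamethasone minus mock; dotted lines mark 2-fold and black points the median of each decile of the probe sets. The median runs from -0.21 in the second decile to 0.19 in the highest, and most probe sets that are at least 2-fold lower sit at low signals.

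**Figure D2:**
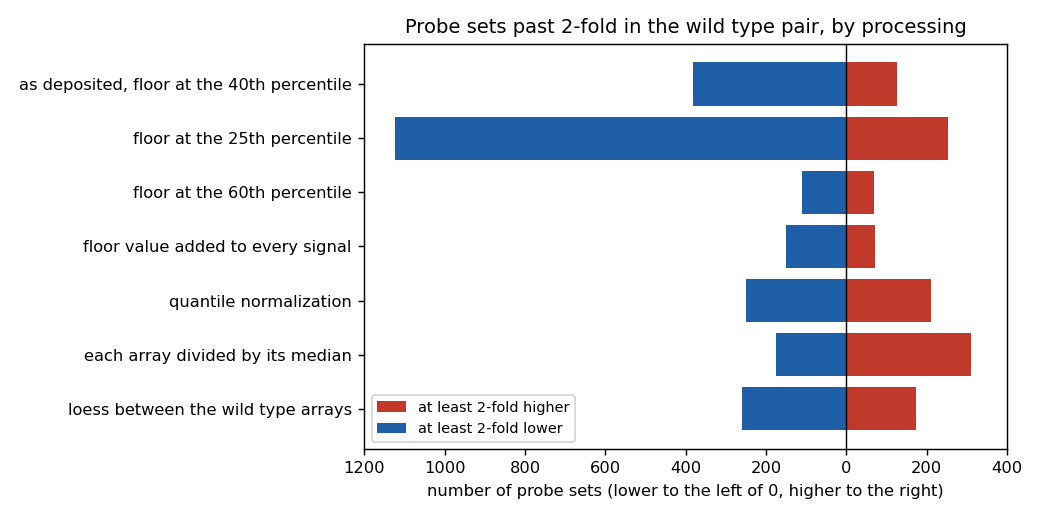
Bars give the number of probe sets at least 2-fold higher (right of 0) and lower (left of 0) with dexamethasone in wild type under 7 processings. The deposited scaling with the floor gave 126 and 381, quantile normalization 212 and 249, and division by the median 310 and 176.

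Among genes above the floor on both wild type arrays, the highest difference was that of AT3G13610, which encodes F6'H1, the enzyme that opens the route to the coumarin scopoletin. Its signal was 663 with dexamethasone and 100.3 in mock, a 6.61-fold difference. The GR-REV arrays held 796 with dexamethasone and 209 in mock, so that in each genotype the array titled dexamethasone was the higher one. Coumarins are secreted by roots short of iron. Of the 24 genes of the iron and coumarin list, 18 have no probe set named in the annotation used and 2 could not be matched, so that only PYE and BGLU42 were measured in wild type beside F6'H1. PYE, a regulator of the iron deficiency response, had 123 with dexamethasone and 184 in mock, or -0.58 on the log2 scale, and the beta-glucosidase gene BGLU42 differed by -0.29. The iron regulator gene BHLH101 was under the floor with and without the steroid in wild type, and had 197 with dexamethasone and 92.6 in mock in GR-REV by title, or 1.09 on the log2 scale. Of the 3 measured genes 1 was past 2-fold higher, and 0.891% of all probe sets with 1 gene were that much higher.

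AT1G73600, a phosphoethanolamine methyltransferase gene of choline synthesis, had 1118 with dexamethasone and 238 in mock, a 4.69-fold difference, and 1711 and 834 on the GR-REV dexamethasone and mock arrays. Both dexamethasone arrays were above both mock arrays. The same order held for AT4G22490, a gene of the protease inhibitor and lipid transfer protein family, with 732 with dexamethasone and 273 in mock in wild type, while the GR-REV arrays held 1164 and 282. In AT4G22490 the mock arrays of the 2 genotypes were thus nearly level.

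OSM34, an osmotin-like gene that responds to salt and to abscisic acid, went the other way in the other genotype. Its signal was 722 with dexamethasone and 180.1 in mock in wild type, and 302 with dexamethasone and 1522 in mock in GR-REV. The highest and the lowest of the 4 values are thus the 2 mock arrays. Of the 23 genes of the abscisic acid and osmotic list, 18 have no probe set named in the annotation used, and 3 others were measured in wild type. The dehydrin gene COR47 had 4368 with dexamethasone and 3923 in mock, and the dehydrin gene LTI30 had 416 and 436. COR15B, a cold-induced chloroplast protein gene, had 68.6, under the floor, and 114, and its relative COR15A was below the floor on both arrays.

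Several of the highest genes were set apart in the wild type mock array. AT1G62480 had 3794 with dexamethasone and 1187 in mock, while both GR-REV arrays were higher, at 8011 and 5461. AT3G18250 had 1250.3 with dexamethasone, 397 in mock, and 1575 and 1443 in GR-REV. The peroxidase gene AT4G36430 had 346 with dexamethasone and 127 in mock, with 332 and 602 in GR-REV. In these genes the wild type mock array was the low one, also beside seedlings that had not received the steroid. Other genes were set apart in the wild type dexamethasone array. The chitinase family gene AT3G47540 had 1981 with dexamethasone and 682 in mock, and 550.5 and 496 in GR-REV dexamethasone and mock. AT5G43910 had 570.1 with dexamethasone against 197 in mock and 238 and 209 in GR-REV, and AT5G46230 had 526 against 179, with 242 and 269.8 in GR-REV. In these 3 genes the wild type dexamethasone array was the highest of the 4.

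Among the 14 highest genes above the floor on both arrays, the wild type mock array held the lowest of the 4 signals in 11 and the wild type dexamethasone array the highest in 7. The choice of the genes favours both counts. In 10 of the 14 the GR-REV pair, which shares no array with the wild type pair, had the same direction by title. Of all probe sets above the floor on both GR-REV arrays, 6584 of 12820 were above 0. In 4 of the 14 the GR-REV pair was also at least 2-fold higher, where 1.98% of all measured probe sets were: AT3G13610, AT1G73600, AT4G22490 and AT1G03660. The last had 325 with dexamethasone and 119 in mock, and was under the floor in GR-REV mock. AT2G41730, at 459 with dexamethasone and 168 in mock, was measured by a probe set whose suffix (x_at) marks probes that may also bind other transcripts. AT1G17960, a threonyl-tRNA synthetase gene, had 249 with dexamethasone and 93.4 in mock, which is only just above the floor.

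**Figure D3:**
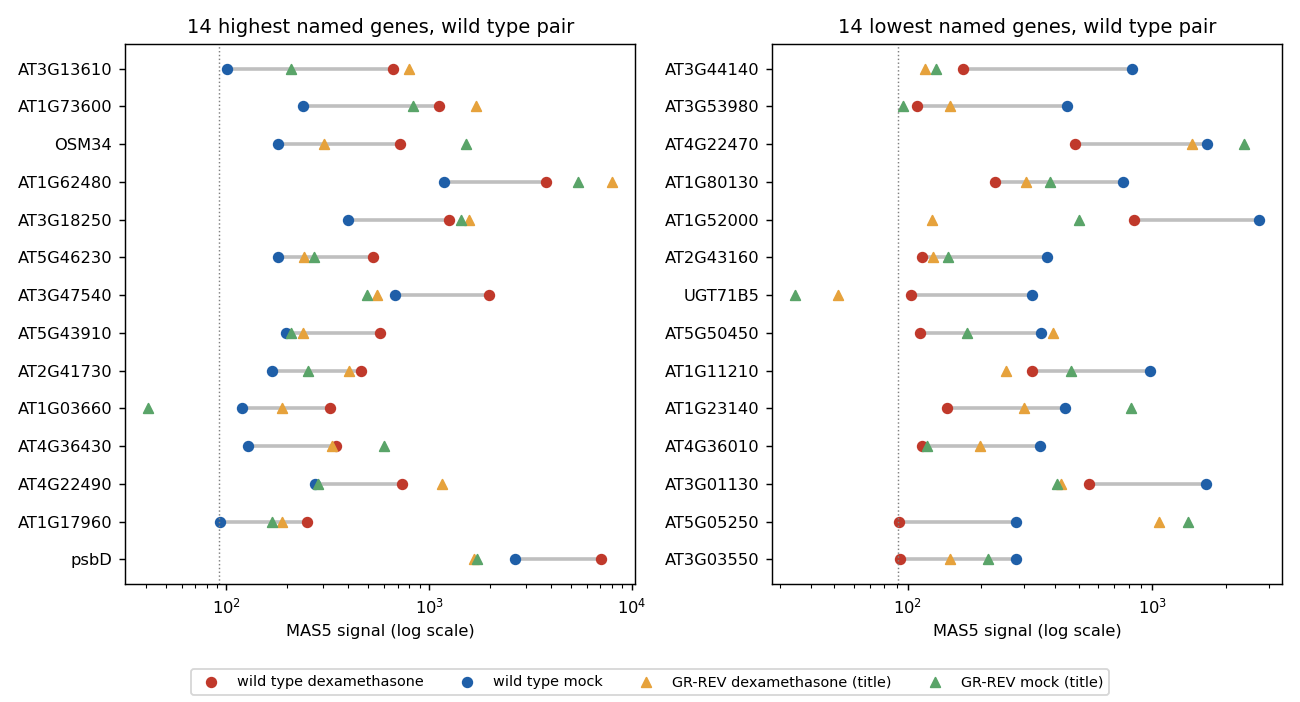
Signals on a log axis for the 14 named genes with the highest and the 14 with the lowest difference, with grey bars joining the 2 wild type arrays, triangles for the GR-REV arrays by title and a dotted line at the floor. In 11 of the 14 highest genes wild type mock is the lowest of the 4 arrays, and in 10 of the 14 lowest it is the highest. The choice of the genes favours both counts.

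At the other end stood AT3G44140, with 168 with dexamethasone and 829 in mock, a 4.94-fold difference, and 118 and 131 in GR-REV. Only the wild type mock array was high. AT3G53980, another gene of the protease inhibitor and lipid transfer protein family, had 109.5 with dexamethasone and 446 in mock, and 149 and 95.6 in GR-REV. The jacalin-type lectin gene AT1G52000 had 840.2 and 2740.3 in wild type dexamethasone and mock, and 125 and 503 in GR-REV. It was therefore lower on the dexamethasone array of each genotype, by 1.71 and 2.01 on the log2 scale.

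AT1G23140, a gene of a C2-domain protein, was also lower in both pairs, with 144 with dexamethasone and 438 in mock, and the GR-REV arrays held 299 and 818. AT1G11210 had 322 and 983 in wild type dexamethasone and mock, and 252 and 467 in GR-REV. In both genes each dexamethasone array was below its own mock array. AT4G22470, also of the protease inhibitor and lipid transfer protein family, had 482 with dexamethasone and 1671 in mock, a 3.47-fold difference. Its GR-REV signals were 1456 and 2380.3, so that the wild type dexamethasone array was the low one. AT3G01130 had 550.4 with dexamethasone and 1655 in mock, and 424 and 407 in GR-REV, and here the wild type mock array was the high one. The tetratricopeptide repeat gene AT1G80130 lay between these patterns, at 228 with dexamethasone and 756 in mock, with 303 and 381 in GR-REV.

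Several of the lowest genes ended close to the floor. The thaumatin family gene AT4G36010 had 115 with dexamethasone and 347 in mock, with 197 and 120.3 in GR-REV. AT5G50450 had 113 and 351, with 394 and 175 in GR-REV. AT5G05250 had 92.4 and 277, and the RING finger gene AT3G03550 had 92.6 and 277. For AT5G05250 the GR-REV arrays were both higher, at 1065 and 1406. The ENTH-domain gene AT2G43160, whose protein belongs to a family of endocytic adaptors, had 114 with dexamethasone and 370.3 in mock on one probe set. Its other probe set differed by -0.12 on the log2 scale, against -1.70. In 10 of the 14 lowest genes the wild type mock array held the highest of the 4 signals, and in 8 the wild type dexamethasone array held the lowest. Here too the choice of the genes favours both counts. The GR-REV pair had the same direction in 9 of the 14, where 48.6% of all probe sets above the floor on both GR-REV arrays were below 0. It was at least 2-fold lower in 2, AT1G52000 and AT1G23140, where 1.96% of all measured probe sets were. UGT71B5, among the 14, was below the floor on both GR-REV arrays and has no direction there.

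Probe sets of the same gene measure the same RNA on the same array, and so show the spread of the measurement. Of 54 genes with more than 1 probe set above the floor on both arrays, 7 had a probe set past 2-fold, all lower with dexamethasone. Each gene was counted by the larger of its differences. Of all probe sets above the floor on both arrays, 2.36% were at least 2-fold lower and 0.824% higher. The other probe set pointed the same way in all 7. Of all probe sets with 1 gene above the floor on both arrays, 58.5% were below 0. The other probe set was past 2-fold in 1, AT1G23440, with -1.29 and -1.24 on the log2 scale. For AT2G37480 the values were -1.24 and -0.41, and for AT1G10090 they were -1.25 and -0.66. The median gap between the probe sets of a gene was 0.36.

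A further 4 genes in each direction were above the floor on only 1 of the wild type arrays. AT3G57950 had 398 with dexamethasone and 34.4 in mock, at least 4.35-fold higher, and 20.1 and 14.3 in GR-REV. AT3G28510 was at least 3.51-fold higher, AT1G33950, a gene of the AIG1 family of defence-linked GTPases, at least 2.81-fold, and AT1G55790 at least 2.62-fold. In all 4 the wild type dexamethasone array was the highest of the series. AT4G22610, also of the protease inhibitor and lipid transfer protein family, had 83.9 with dexamethasone and 336 in mock, at least 3.68-fold lower. AT4G09840 was at least 3.51-fold lower, the F-box gene AT2G27310 at least 3.26-fold and AT2G10020 at least 2.86-fold. AT2G10020 had 3.26 with dexamethasone and 261 in mock, and 9.81 and 4.58 in GR-REV, so that it was above the floor on the wild type mock array alone.

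Hormone genes were thinly covered, since the annotation names a probe set for few of them, and the rest were not analysed here. All 5 measured members of the gibberellin list were below 0, with a median of -0.69 on the log2 scale, where all probe sets with 1 gene had a median of -0.10 and 61.0% of them were below 0. Of the 5, SLY1, turned above 0 under each of the 3 other scalings. The receptor gene GID1B had 219.9 with dexamethasone and 443 in mock, a 2.01-fold difference, and 155 and 359 in GR-REV. It was below 2-fold under each of the 3 other scalings, at -0.90, -0.80 and -0.87 on the log2 scale. GID1A had 459.6 and 742 in wild type dexamethasone and mock, and GID1C had 119 and 195. The F-box gene SLY1, which carries DELLA repressors to degradation, had 517 and 523, and SPY, a glycosylating repressor of the pathway, had 315 and 395.

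Of the brassinosteroid and sterol list only the sterol isomerase gene CPI1 was measured, with 535 with dexamethasone and 564 in mock, a difference whose sign turned under the 3 other scalings, and the receptor kinase gene BRL1 was below the floor on both wild type arrays. In the auxin list 0 of 5 measured members were past 2-fold. Of all probe sets with 1 gene, 0.891% were at least 2-fold higher and 2.69% lower. GH3.3, an auxin-conjugating enzyme gene, had 455 with dexamethasone and 725 in mock, and its relative GH3.5 had 413 and 583. HAT2, an HD-ZIP II factor gene, had a log2 difference of 0.04. For the clock gene GI, the only member of its list with a probe set, the signals were 352 with dexamethasone and 607 in mock.

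Rapidly responding genes, of the kind that change within minutes of touch or handling, had a median of -0.41 over 6 members, with 1 at least 2-fold lower, where 2.69% of probe sets with 1 gene were. That member was WRKY53, a transcription factor gene of senescence and defence, with 272 with dexamethasone and 632 in mock, and 713 and 466 in GR-REV. The wild type dexamethasone array was the lowest of the 4, and the GR-REV dexamethasone array the highest. The ubiquitin ligase genes PUB22 and PUB23 had 218 and 234 with dexamethasone, against 302 and 395 in mock. The zinc finger gene STZ had 1255 with dexamethasone and 1103 in mock, and the calmodulin-like gene CML38 had 318 and 405. Of the low oxygen list, the pyruvate decarboxylase gene PDC2 had 663 with dexamethasone and 1149 in mock.

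Defence genes differed from member to member. PDF1.2, a defensin gene induced by jasmonate and ethylene, had 2822 with dexamethasone and 1341 in mock, at least 2-fold higher. PDF1.4 had 865 with dexamethasone and 2555 in mock, 2.96-fold lower, and PDF1.2b had 6287 and 6447. The PDF1.2b probe set has the x_at suffix and may also bind transcripts of its relatives. In GR-REV dexamethasone and mock, the signals were 1541 and 5721 for PDF1.2, 477 and 1279.9 for PDF1.4, and 1854 and 6438 for PDF1.2b. PDF1.4 was thus lower on the dexamethasone array of both genotypes, and PDF1.2 only on that of GR-REV. The thionin genes THI2.1 and THI2.2 were below the floor on both wild type arrays.

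UDP-glycosyltransferases attach sugars to hormones, flavonoids and foreign compounds, and 25 of their 27 measured genes were below 0, or 92.6%, against 61.0% of all probe sets with 1 gene. Their median was -0.43 on the log2 scale, and it stayed below that of all probe sets with 1 gene under each of the 7 other settings at 2-fold. With division by the median it was -0.22, where the median of all was 0.09. Of the 27 genes 3 were at least 2-fold lower, or 11.1%, where 2.69% of all probe sets with 1 gene were, and 0 were higher. UGT85A2 had 533 with dexamethasone and 1266 in mock, and the GR-REV arrays held 554 and 1309.8, nearly the same signals in both genotypes. For UGT85A4 the wild type arrays held 92.4 with dexamethasone and 266 in mock, and the GR-REV arrays 338 and 437. UGT71B5 had 103 and 322 in wild type and was below the floor on both GR-REV arrays. The wild type dexamethasone signals of UGT85A4 and UGT71B5 were thus close to the floor. Of the 3 genes only UGT85A2 stayed past 2-fold in every setting at 2-fold. With the floor at the 60th percentile UGT85A4 was at 0 and UGT71B5 at -0.24 on the log2 scale. With the floor value added to every signal they were at -0.96 and -1.09. The cytokinin glycosyltransferase gene UGT76C2 and UGT76B1, which acts on isoleucic acid, were the 2 members above 0, at 0.43 and 0.38. Of these 27 genes 25 were also measured in the GR-REV pair, and 20 of the 25 were below 0 by title, with a median of -0.47. Of all probe sets with 1 gene measured in that pair, 49.6% were below 0, with a median of 0.003. Members measured only in GR-REV are not in these counts.

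**Figure D4:**
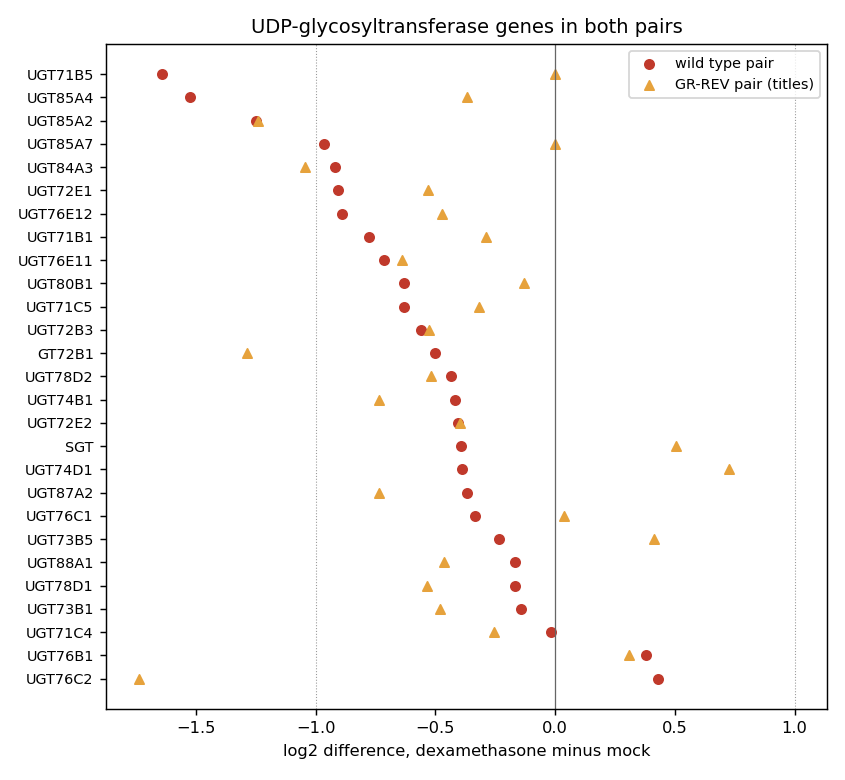
Log2 difference, dexamethasone minus mock, of 27 UDP-glycosyltransferase genes in the wild type pair (circles) and in the GR-REV pair by title (triangles, 0 where both GR-REV arrays are at the floor). In wild type 25 of the 27 lie below 0, and UGT85A2 lies at -1.25 in wild type and -1.24 in GR-REV.

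The 9 glutathione S-transferase genes, whose products couple glutathione to reactive compounds, had a median of -0.31 with none past 2-fold. They ran from -0.92 for GSTU26 to 0.11 for GSTU20. Of all probe sets with 1 gene, 0.891% were at least 2-fold higher and 2.69% lower. GSTU26 had 126 with dexamethasone and 239 in mock, and GSTU20 had 6871 and 6375. The 12 cytochrome P450 genes had a median of -0.19, where all probe sets with 1 gene had -0.10, from -0.50 to 0.60. UGT73B4, often used as a sign of xenobiotic stress, was below the floor on both wild type arrays, at 25.2 with dexamethasone and 67.7 in mock. In GR-REV it had 211 with dexamethasone and 97.8 in mock by title, and it is not among the UDP-glycosyltransferase genes counted above. The 7 genes matched as methyltransferases by name had a median of 0.29, with 4 above 0 and 3 below. The match did not include the methyltransferase gene AT1G73600, at 2.23 on the log2 scale.

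The 9 genes matched by name as RING and U-box ubiquitin ligases had a median of -0.47, with 8 below 0 and 0 past 2-fold. Of all probe sets with 1 gene, 61.0% were below 0 and 2.69% at least 2-fold lower. The match by name did not include the RING finger gene AT3G03550, at -1.58 on the log2 scale. In the GR-REV pair 5 of the 9 were below 0 by title, where 49.6% of probe sets with 1 gene were.

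The 17 expansin and xyloglucan enzyme genes, which loosen and remodel the wall, had a median of -0.11, where all probe sets with 1 gene had -0.10. With the floor at the 25th percentile the values were -0.27 and -0.12. Of the pectin methylesterases and pectate lyases, which act on wall pectin, the 3 genes measured were all pectin methylesterases. Their median was -0.27, with all 3 below 0, where 61.0% of all probe sets with 1 gene were. XTH19 differed by -1.32 on the log2 scale, and XTH32 by 0.85. They were the ends of the range of the expansin and xyloglucan enzyme genes.

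**Figure D5:**
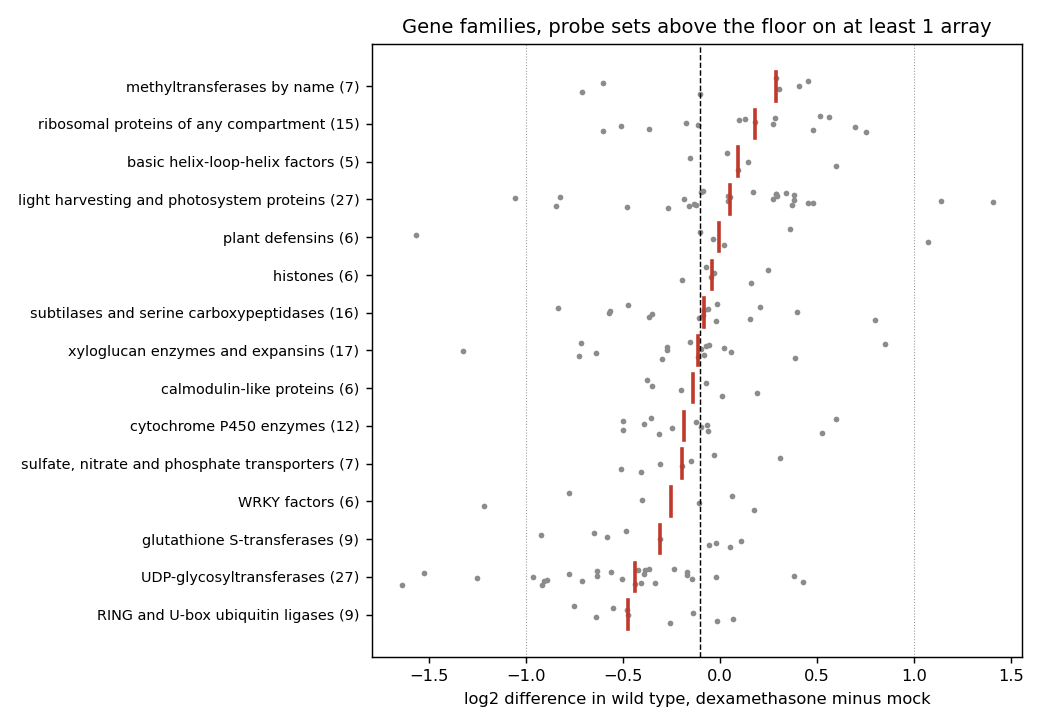
Log2 difference in wild type, dexamethasone minus mock, for members of gene families with at least 5 measured probe sets (dots), the family median (red bar), the median of all probe sets with 1 gene (dashed line) and 2-fold (dotted lines); the number measured follows each name. UDP-glycosyltransferases and ubiquitin ligases have the lowest medians, -0.43 and -0.47.

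Of 68 measured probe sets of the plastid genome 43 were above 0 and 25 below, where 58.4% of all measured probe sets were below 0. Their median was 0.18, beside 0.19 for the highest decile of all probe sets, and it was -0.04 after quantile normalization, 0.39 with division by the median and -0.08 with the smooth curve, so that its sign depended on the scaling. At least 2-fold higher were 3 of the 68 and lower was 1, where 0.859% of all measured probe sets were higher and 2.6% lower. The neighbouring genes psbD and psbC encode the D2 and CP43 proteins of the photosystem II core and are transcribed together. psbD had 7026 with dexamethasone and 2649.9 in mock, and psbC had 23921 and 10862. On the GR-REV dexamethasone and mock arrays they had 1659 and 1723, and 7521 and 11498. Also past 2-fold was rbcL, the gene of the large rubisco subunit, with 4913 with dexamethasone and 2206 in mock, named after its values were seen. In the other direction psbJ, a small photosystem II subunit gene, had 4708 and 9789. Its neighbours psbL, psbF and psbE differed by -0.82, -0.48 and -0.84 on the log2 scale. Under quantile normalization and the smooth curve psbC was at 0.85 and 0.83, short of 2-fold, and psbJ fell short with division by the median, at -0.84.

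Both pairs can be set side by side, since they share no array. Of the 126 probe sets at least 2-fold higher in wild type, 26 were so in GR-REV too, or 20.6% of the wild type list and 9.35% of the 278 in GR-REV, where 1.98% of measured probe sets were called higher. A further 5 were at least 2-fold lower there. Of the 381 lower ones, 52 were lower in GR-REV, or 13.6% of the wild type list and 18.9% of the 275 in GR-REV, where 1.96% were called lower, and 4 were higher. The median difference in the GR-REV pair was 0.33 over the higher and -0.29 over the lower probe sets measured there. With the treatments of the source names, these values change sign.

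By chromosome, the median difference lay between -0.10 and -0.07 on each of the 5 nuclear chromosomes.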

How the data were processed

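The 4 Affymetrix ATH1 arrays were deposited as intensity values on a linear scale, 1 signal per probe set, made with MAS5, per the submitters' processing notes; its version is not given in the sources used here. Each array ran in a fluidics module of its own, per the file headers, which makes module and group inseparable. Groups follow the titles. The 64 controls among 22810 probe sets were dropped. Signals below the 40th percentile over all arrays (91.4) were raised to it, log2 was taken, and raised values count as bounds. Names came from the platform's annotation and were updated through RefSeq's table for TAIR10.1, used for names and order only: 13513 probe sets had 1 gene, of which 13436 matched, 503 had several and 8730 had none listed and are unnamed here. No sequences were used.

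Differences are dexamethasone minus mock. At least 2-fold counts as called, with no test at 1 array per group. The genes named are the 14 highest and 14 lowest with 1 gene above the floor on both wild type arrays. Added to them are 4 above it on only 1 array in each direction, and list members past 2-fold. Up to 3 were named per family with 3 or more past 2-fold. Up to 6 were named that were past 2-fold with opposite signs in the pairs. Further list and family members are given to show the rest of their group. Family patterns match symbols and synonyms, and some were corrected after false matches were seen. The members and lists were chosen with earlier results of these data known. The calculation (Python 3.11.15, pandas 2.3.3, statsmodels 0.14.6) was checked on simulated arrays. Alternatives were other floors, quantile normalization, division by the median, a loess curve and 3-fold.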

Additional observations from a re-analysis of the deposited data

Results flagged for a closer look

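Over all probe sets, 5 of the 126 at least 2-fold higher in wild type were that much lower in GR-REV by title, and 26 were higher. Of the 381 lower ones, 4 were higher in GR-REV and 52 lower. Given here are up to 6 of the opposite probe sets assigned to 1 gene, ranked by the smaller of their 2 differences. The difference between the genotypes was not tested, and with the treatments of the source names each has the same sign in both. Values are log2 differences, dexamethasone minus mock, in wild type and then in GR-REV by title. OSM34 differed by 2.00 and -2.33, and PDF1.2 by 1.07 and -1.89. The pseudogene AT3G15310 differed by 1.11 and -1.69. AT5G50450 differed by -1.64 and 1.17, and the cathepsin B-like protease gene AT1G02300 by -1.24 and 1.13. SPT, a bHLH regulator of carpel and seedling growth, differed by -1.02 and 1.38.

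The 25S rRNA control, which no comparison used, had a signal of 768 on the wild type dexamethasone array and 293 on the wild type mock array. Its part in the results was not tested.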

How the results depend on the processing

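With 1 array per group there is no replicate to leave out, and no paired analysis was possible because each group has 1 array and the labels carry no replicate numbers. As reported, 126 probe sets passed 2-fold upward and 381 downward. Moving the floor to the 25th percentile gave 253 and 1123, and to the 60th 68 and 109. The counts were 1461 and 3448 with no floor, 72 and 151 with the floor value added, 212 and 249 once quantile normalized, and 310 and 176 when each array was divided by its median. At 3-fold they were 19 and 34. Higher calls were 24.9% of all calls as deposited, 46.0% after quantile normalization, 63.8% with division by the median and 40.2% with the loess curve. The median over measured probe sets, -0.08 on the log2 scale, was 0.01, 0.12 and -0.02 under these 3 scalings. The probe sets past 2-fold in every setting numbered 43 higher and 50 lower. Of the 47 probe sets past 2-fold named by the rule, 0 changed direction in a setting at 2-fold, 43 stayed past 2-fold under all 3 scalings, and 22 did with the floor at the higher setting, which raises the bound itself. Of 40 measured list members, 7 with small differences changed sign under a scaling: CPI1, SLY1, LTI30, PDF1.2b, GSTU20, LHCB4.1 and LHCB4.2. CPI1 was at -0.07 as reported and at 0.02 after quantile normalization, and PDF1.2b was at -0.04 and, with division by the median, at 0.17. Signals below the floor give only a bound.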

Other observations

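Of the protease inhibitor and lipid transfer protein genes named above, 3 of them lie close together on chromosome 4, which was seen after their values were known. Along AT4G22450 to AT4G22620 the annotation names 9 probe sets. AT4G22490 was higher with dexamethasone, by 1.42 on the log2 scale, and AT4G22470 and AT4G22610 were lower, by 1.79 and, as a bound, 1.88. Between and beside them AT4G22530 differed by -0.85 and AT4G22580 by -0.30. AT4G22460 and AT4G22560, above the floor only in mock, differed by -0.34 and -0.71 as bounds. AT4G22450 and INP1 were below the floor on both arrays. In the GR-REV pair AT4G22490 differed by 2.04, AT4G22470 by -0.71 and AT4G22610, as a bound, by -0.31.

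When gene symbols were grouped by their letters, also after the data were seen, 38 groups had at least 5 measured probe sets. The lowest medians were -0.48 for the 6 PUB ubiquitin ligase genes and -0.43 for the 25 UGT genes and the 6 NET genes. The highest were 0.80 for 5 SBT subtilase genes and 0.25 for 5 TUB tubulin genes. The SBT genes ran from -0.57 to 1.02, with 2 below 0, and the TUB genes from -0.25 to 1.02, with 1 below 0. The 16 genes matched by name as subtilases and serine carboxypeptidases had a median of -0.08. That match did not hold all 5 SBT genes, since its highest member was at 0.80. SBT3.3, a subtilase gene linked to immune priming, had 218 with dexamethasone and 107 in mock, and 99.3 and 129 in GR-REV. The tubulin gene TUB1 had 262 with dexamethasone and 129 in mock, and 271 and 147 in GR-REV, so that both dexamethasone arrays were above both mock arrays. In the GR-REV pair the PUB median was -0.60, the UGT median -0.47 and the NET median -0.41 by title, the TUB median was 0.49, and the SBT median, -0.16, had the opposite sign to that in wild type.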
